A study of Oryza sativa with 36 samples.

Results

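The genes described here encode the enzymes that turn nitrate into the amino acids glutamine and glutamate. They were chosen as a list of 10 locus identifiers, taken by gene ID from the 34623 genes common to the deposited tables, and all 10 were found. They are 3 nitrate reductases, LOC_Os08g36480 (NIA1 here), LOC_Os08g36500 (NIA2) and LOC_Os02g53130, the ferredoxin nitrite reductase LOC_Os01g25484 (NiR), the glutamine synthetases LOC_Os02g50240 (GS1;1), LOC_Os03g12290 (GS1;2) and LOC_Os04g56400 (GS2), the ferredoxin-dependent glutamate synthase LOC_Os07g46460 (Fd-GOGAT), and the NADH-dependent glutamate synthases LOC_Os01g48960 (NADH-GOGAT1) and LOC_Os05g48200 (NADH-GOGAT2). The files annotate each locus with its enzyme class only. The short names are those in common use for rice, and the files give no coordinates for these loci.

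RNA was sequenced from flag leaves, the uppermost leaves of the rice plant, of WFB and CHT025 and of WFYT025, the super-hybrid they produced. Each variety was sampled on day 1 and on day 10 after flowering, in an early rice crop and in a middle rice crop, called the early and the middle season below. Each of the 12 combinations holds 3 libraries, which gives 36. Whether those 3 were taken from different plants is not stated, and p-values therefore reflect only how the libraries of a group vary, which could be technical.

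Nitrate reductase reduces nitrate to nitrite in the cytosol, and nitrite reductase reduces nitrite to ammonium in the plastid. Glutamine synthetase then fixes ammonium into glutamine, and glutamate synthase passes the amide group on to make glutamate. In leaves the plastid pair GS2 and Fd-GOGAT is known for recapturing the ammonium released by photorespiration, while the cytosolic glutamine synthetases are known for making glutamine for export to the grain. Nitrate reductase transcripts are known in plants to respond to nitrate and light and to vary over the day.

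The deposited values are FPKM, fragments scaled by gene length and library size, so levels can be set side by side between genes on that scale. FPKM sums ran from 532276 to 567391 per library, and 21656 to 23811 genes were above 0. The number of reads behind a value is unknown. All 36 libraries correlated best with a library of their own group (Pearson's r across genes, at least 0.9902 within groups and at most 0.976 between them). The 5 leaf markers summed to 25745 to 47287 FPKM, against 4.61 to 15.3 for 4 root markers, of which 1 was at 0 in every library. The 4 grain and panicle markers summed to 4.26 to 203 FPKM. They were highest in WFB on day 1 of the middle season, at 143 to 203, and differed up to 17.3-fold between libraries of 1 group. Their part in the results below was not tested. In bulk leaf RNA, fewer cells of a type and less RNA per cell cannot be told apart.

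GS2 and Fd-GOGAT were the most abundant of the 10 genes and varied least. GS2 lay between 701 and 1390 FPKM and Fd-GOGAT between 496 and 812 in the 36 libraries, and their highest group means were 1.94 and 1.52 times their lowest. NADH-GOGAT2 varied most, with a 663-fold range of group means, followed by NIA1 (17.2-fold), NIA2 (13.5-fold), GS1;1 (12.1-fold), NiR (9.0-fold), NADH-GOGAT1 (4.85-fold) and GS1;2 (2.77-fold). The third nitrate reductase, LOC_Os02g53130, never passed 0.41 FPKM and was listed at 0 in 12 of 36 libraries. All 6 early-season WFB libraries were among these 12, and its highest group mean was 0.303 ± 0.0833 (WFYT025, day 10, middle season). It did not reach the filter of 1 FPKM in 3 libraries, and the other 9 genes were tested.

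**Figure D1:**
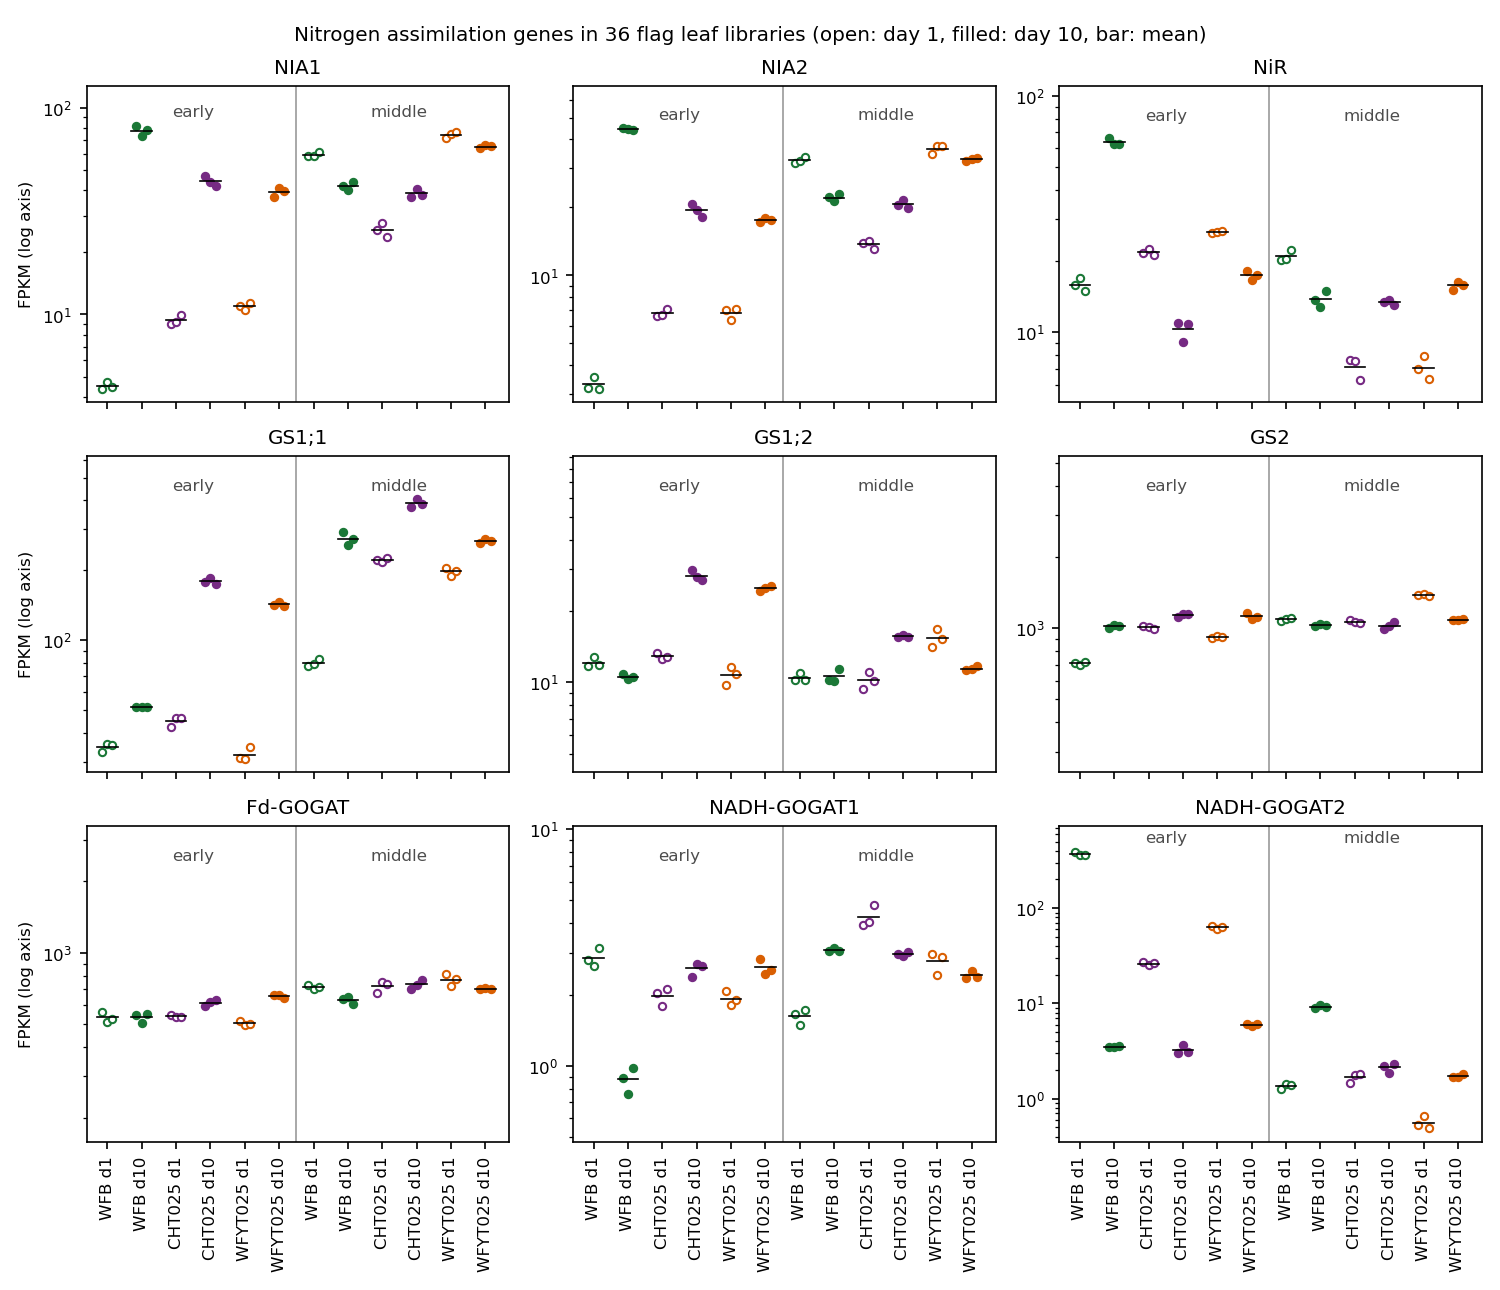
FPKM (log axes, different ranges) of the 9 tested genes in the 36 libraries, by variety and day (d1, d10), with the early season left of the grey line. Each circle is 1 library and each bar a mean of 3. NADH-GOGAT2 spans 0.49 to 385 FPKM, while GS2 stays between 701 and 1390.

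Both tested nitrate reductases rose steeply from day 1 to day 10 in the early season in all 3 varieties. In WFB the day 1 libraries held 4.38, 4.72 and 4.44 FPKM of NIA1 and the day 10 libraries 81.5, 72.8 and 78.0, a 17.2-fold difference of the means. In CHT025 NIA1 stood at 9.03, 9.20 and 9.97 on day 1 and at 46.6, 43.8 and 41.8 on day 10. In WFYT025 it stood at 10.99, 10.5 and 11.4 on day 1 and at 36.9, 41.0 and 39.6 on day 10. No day 1 library reached a day 10 library in any variety, and WFB had both the lowest and the highest values of the season. The log2 changes of NIA1 were 3.83 ± 0.05 in WFB, 2.11 ± 0.05 in CHT025 and 1.75 ± 0.05 in WFYT025 (± standard error, limma adjusted p = 2.88e-31, 5.02e-24 and 3.16e-22).

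NIA2 moved with NIA1 at a lower level. In the early season its mean went from 3.29 ± 0.231 to 44.5 ± 0.441 FPKM in WFB (± SD, n = 3, as for all means here). CHT025 went from 6.80 ± 0.272 to 19.4 ± 1.22, and the hybrid from 6.81 ± 0.419 to 17.6 ± 0.389. The log2 changes were 3.41, 1.39 and 1.25, each called. NIA1 made up 57.8% to 69.4% of the FPKM of the pair in the 12 groups. The lowest shares were those of day 1 of the early season, at 57.8% ± 0.762 in WFB, 58.0% ± 0.316 in CHT025 and 61.7% ± 0.729 in WFYT025. The genes are paralogs, and how the counting divided reads that match both was not given in the sources used here. LOC_Os08g36490, whose locus number lies between theirs, is annotated as a kinetochore protein and stayed at 0.03 to 0.33 FPKM.

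**Figure D2:**
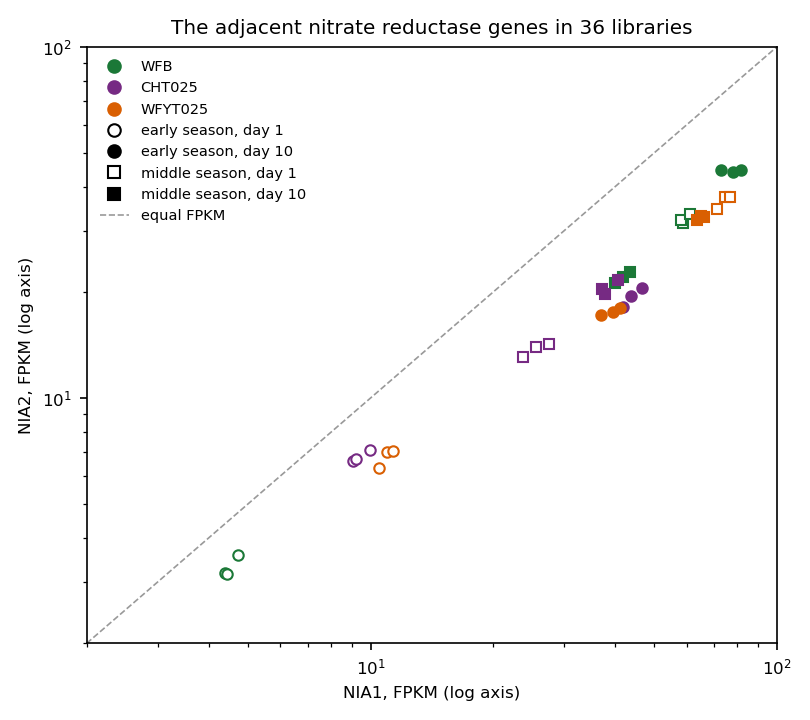
NIA1 against NIA2 in FPKM (both axes log), 1 point per library, coloured by variety, with circles for the early and squares for the middle season, open for day 1 and filled for day 10. All 36 points lie below the line of equal FPKM, and the 9 early-season day 1 libraries form the low end, at 4.38 to 11.4 FPKM of NIA1.

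Middle-season leaves held both genes at levels already high on day 1, and the later changes were smaller. NIA1 held 58.6, 58.1 and 61.3 FPKM in WFB on day 1 and 41.9, 39.9 and 43.5 on day 10, a fall of the log2 level by 0.50. In WFYT025 the values were 71.2, 74.7 and 76.6 on day 1 and 63.5, 66.1 and 65.0 on day 10 (log2 -0.19, adjusted p = 0.00303). CHT025 went the other way, from 25.6, 27.6 and 23.7 to 37.2, 40.7 and 37.8 (log2 0.57). NIA2 fell in WFB (log2 -0.53) and WFYT025 (log2 -0.15) and rose in CHT025 (log2 0.55), so the parents differed in the sign of the change for both genes. The order of group means of NIA1 over all 12 groups ran from WFB on day 10 of the early season down to WFB on day 1 of the same season. The first 2 groups overlapped each other, as did the 4 groups with means between 38.5 and 44.0 FPKM, each with the next.

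Nitrite reductase, the next step, did not share one direction with the nitrate reductases. In WFB of the early season NiR rose from 15.8, 16.9 and 15.01 FPKM to 66.0, 62.8 and 62.5, the highest values of any group (log2 1.94 ± 0.07, adjusted p = 1.02e-20). In CHT025 of the same season it fell from 21.6, 22.6 and 21.2 to 10.9, 9.11 and 10.8 (log2 -1.02 ± 0.07, adjusted p = 1.58e-13). In WFYT025 it fell from 26.6 ± 0.343 to 17.4 ± 0.770 (log2 -0.58). The hybrid and CHT025 thus moved opposite to WFB. Each direction was the other way round in the middle season. NiR fell in WFB, from 21.0 ± 1.19 to 13.9 ± 1.1 (log2 -0.57), and rose in CHT025, from 7.17 ± 0.770 to 13.4 ± 0.315 (log2 0.82), and in WFYT025, from 7.08 ± 0.804 to 15.8 ± 0.590 (log2 1.06). Over the 12 group means the correlation of NiR with NIA1 was r = -0.03 on the log2 scale, against 0.99 between NIA1 and NIA2, values that describe these groups and share libraries. A second locus annotated as a nitrite reductase, LOC_Os02g52730, held 0.21 to 3.49 FPKM.

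GS1;1, a cytosolic glutamine synthetase, rose from day 1 to day 10 in each of the 6 comparisons, with no overlap between the days. In the early season the libraries of CHT025 went from 42.2, 46.3 and 46.5 FPKM to 178, 185 and 176 (log2 1.97 ± 0.05) and those of WFYT025 from 31.0, 30.9 and 34.7 to 142, 146 and 141 (log2 2.12 ± 0.05). WFB rose less, from 33.0, 35.9 and 35.5 to 51.8, 51.4 and 51.7 (log2 0.56 ± 0.05). The largest rise of the middle season was that of WFB, from 77.5, 79.0 and 83.2 to 291, 257 and 272 (log2 1.76). CHT025 rose from 222 ± 5.27 to 389 ± 14.5 (log2 0.81) and WFYT025 from 198 ± 8.07 to 267 ± 4.62 (log2 0.43). CHT025 on day 10 of the middle season thus held the most, and its 3 libraries, at 376 to 404 FPKM, lay above all others.

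The mean share of GS1;1 in the glutamine synthetase transcripts was larger on day 10 than on day 1 in each variety and season, although the libraries of both days overlapped in early-season WFB. Its share of the summed FPKM of the 3 genes was 3.35% ± 0.214 in WFYT025 on day 1 of the early season and 27.2% ± 0.788 in middle-season CHT025 on day 10. Early-season WFB stayed near the low end on both days, at 4.6% ± 0.217 and 4.79% ± 0.0684, while in CHT025 it went from 4.23% ± 0.269 to 13.4% ± 0.353 and in WFYT025 to 11.1% ± 0.367. In the middle season WFB went from 6.76% ± 0.154 to 20.8% ± 1.24, CHT025 from 17.1% ± 0.425 to 27.2% and WFYT025 from 12.5% ± 0.519 to 19.6% ± 0.271. These shares were described and not tested.

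**Figure D3:**
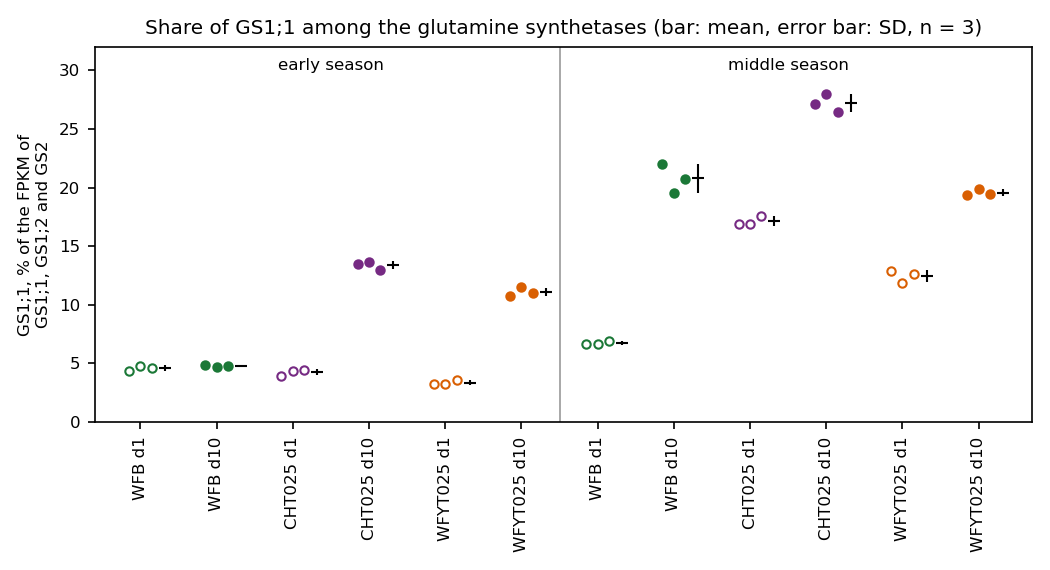
Share of GS1;1 in the FPKM of the 3 glutamine synthetases (%), by variety and day, with the early season left of the grey line. Open circles are day 1 libraries, filled circles day 10 libraries, and bars the mean ± SD of 3. All early-season day 1 libraries lie at or below 4.79%, and the highest group is CHT025 on day 10 of the middle season at 27.2%.

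The other cytosolic gene, GS1;2, stood at 9.41 to 29.8 FPKM and rose in CHT025 of both seasons and in early-season WFYT025. In the early season CHT025 went from 13.3, 12.5 and 12.8 FPKM to 29.8, 27.9 and 27.0 (log2 1.07 ± 0.06) and WFYT025 from 9.73, 11.6 and 10.9 to 24.4, 25.1 and 25.4 (log2 1.15 ± 0.06). CHT025 of the middle season rose from 10.2 ± 0.827 to 15.7 ± 0.206 (log2 0.58), while WFYT025 fell from 15.4 ± 1.34 to 11.4 ± 0.265 (log2 -0.39). In WFB the means were 12.1 and 10.6 FPKM in the early season (log2 -0.18, adjusted p = 0.00979). That call was lost without WFB day 1 early replicate 2 (log2 -0.14, adjusted p = 0.0610) and after quantile normalization (log2 -0.05). In WFB of the middle season they were 10.5 and 10.6 (log2 0.02, adjusted p = 0.844). Quantile normalization turned that difference into a called fall (log2 -0.16, limma adjusted p = 0.0383). As with the nitrate reductases, reads shared between these paralogs may have been divided in a way the sources used here do not give.

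GS2, the plastid enzyme, was lowest in WFB on day 1 of the early season, at 711, 701 and 718 FPKM, and highest in middle-season WFYT025 on day 1, at 1376, 1390 and 1368. No other library lay below 909 or above 1153. It rose with the day in the early season, by log2 0.52 in WFB, 0.17 in CHT025 and 0.29 in WFYT025 (each SE 0.03). Middle-season GS2 was called lower on day 10 in WFB (log2 -0.08) and WFYT025 (log2 -0.34), but quantile normalization turned both values to 0.04, uncalled. In CHT025 the log2 difference was -0.05 (adjusted p = 0.0925).

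Fd-GOGAT, the partner of GS2 in the plastid, had group means of 505 to 769 FPKM. Between days it rose in early-season WFYT025, from 505 ± 10.6 to 656 ± 12.03 (log2 0.38 ± 0.04). In early-season WFB it held 533 ± 26.6 and 534 ± 23.6 (log2 0.00, adjusted p = 0.952). The difference in middle-season CHT025 was 0.03 (limma adjusted p = 0.627) and became a called rise after quantile normalization (log2 0.17). The calls of early-season CHT025 (log2 0.19), middle-season WFB (log2 -0.18) and middle-season WFYT025 (log2 -0.12) were lost after quantile normalization, with values of 0.02, -0.07 and 0.06. The last was also lost without WFYT025 day 1 middle replicate 1 (log2 -0.08, adjusted p = 0.126).

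NADH-GOGAT2 showed the largest changes of the group. NADH-dependent glutamate synthases are the form known for non-photosynthetic and vascular tissue. On day 1 of the early season WFB held 385, 357 and 364 FPKM, WFYT025 65.7, 61.0 and 63.5, and CHT025 26.9, 25.3 and 26.5, and the 3 varieties did not overlap. By day 10 the values had fallen to 3.48, 3.5 and 3.57 in WFB, 6.13, 5.79 and 6.06 in WFYT025 and 3.02, 3.66 and 3.08 in CHT025. The means thus differed 105-fold in WFB, 10.6-fold in WFYT025 and 8.06-fold in CHT025. The log2 changes were -6.36 ± 0.06, -3.20 ± 0.06 and -2.68 ± 0.06 (limma adjusted p = 3.29e-35, 6.61e-27 and 6.27e-25). The authors' deposited table gives log2 ratios of day 1 over day 10 of 6.71, 3.40 and 3.01 for the same comparisons. On day 1 of the early season in WFB the gene accounted for 40.8% ± 0.276 of the FPKM of the 3 glutamate synthases, against 11.1% in WFYT025, 4.62% in CHT025 and at most 1.44% in any other group.

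In the middle season NADH-GOGAT2 was low on day 1 and rose. WFB went from 1.27, 1.43 and 1.40 FPKM to 8.92, 9.66 and 9.12 (log2 2.11 ± 0.06), and WFYT025 from 0.53, 0.65 and 0.49 to 1.70, 1.69 and 1.82 (log2 0.81 ± 0.06). CHT025 rose least, from 1.47, 1.75 and 1.83 to 2.22, 1.87 and 2.31 (log2 0.22, adjusted p = 0.00422). The day 1 values of WFB therefore went from the highest of all groups in the early season to the second lowest in the middle season.

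NADH-GOGAT1 stayed at or below 4.78 FPKM in every library. In WFB of the early season it fell from 2.79, 2.63 and 3.13 FPKM to 0.89, 0.76 and 0.98, the lowest values of any group (log2 -1.04 ± 0.07, adjusted p = 8.69e-14). It rose in WFB of the middle season, from 1.65, 1.49 and 1.72 to 3.04, 3.14 and 3.06 (log2 0.64 ± 0.07). In CHT025 the directions were reversed, with a rise in the early season (log2 0.27) and a fall in the middle season (log2 -0.40), when the day 1 libraries held 3.95, 4.03 and 4.78 FPKM, the highest of all. WFYT025 rose in the early season (log2 0.30), and its middle-season difference was -0.14 (adjusted p = 0.0946). The difference became called without WFYT025 day 1 middle replicate 2 (log2 -0.21) and after quantile normalization (log2 -0.41). At such low FPKM the log2(FPKM + 1) scale understates the change.

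The changes between the days were counted over the 9 tested genes and over all tested genes. In the early season 5 rose and 3 fell in WFB, where 25% of all 18585 tested genes rose and 46.1% fell. In CHT025 7 rose and 2 fell, against 25.1% and 39.9%, and in WFYT025 7 rose and 2 fell, against 33% and 35%. The middle season gave WFB 3 rises and 5 falls (46% and 20.6%), CHT025 6 and 1 (23.1% and 20.5%), and WFYT025 3 and 5 (47.7% and 16.6%). The split of all tested genes moved with quantile normalization, to 33.1% higher and 35.5% lower in early-season WFB, 34% and 30.2% in early-season CHT025, 32.7% and 26.3% in middle-season WFB, and 23.4% and 35.5% in middle-season WFYT025. A called change of at least 2-fold on the log2(FPKM + 1) scale was seen in 5, 6 and 5 of the 9 in the early season for WFB, CHT025 and WFYT025, where 17.6%, 9.85% and 12.2% of tested genes had one. The counts in the middle season were 2, 0 and 1 of 9, against 9.6%, 3.84% and 9.56%. They leave out NADH-GOGAT2 in middle-season WFYT025, whose mean FPKM rose 3.12-fold but whose log2(FPKM + 1) rose by 0.81. The median log2 change of the 9 was 0.52, 0.27 and 0.38 in the early season (all tested genes -0.15, -0.09 and -0.00) and -0.08, 0.55 and -0.14 in the middle season (all tested genes 0.16, 0.01 and 0.18). Of the 49 calls in these comparisons, 43 kept their direction and call in every alternative, and the exceptions are the GS1;2, GS2 and Fd-GOGAT values named above.

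**Figure D4:**
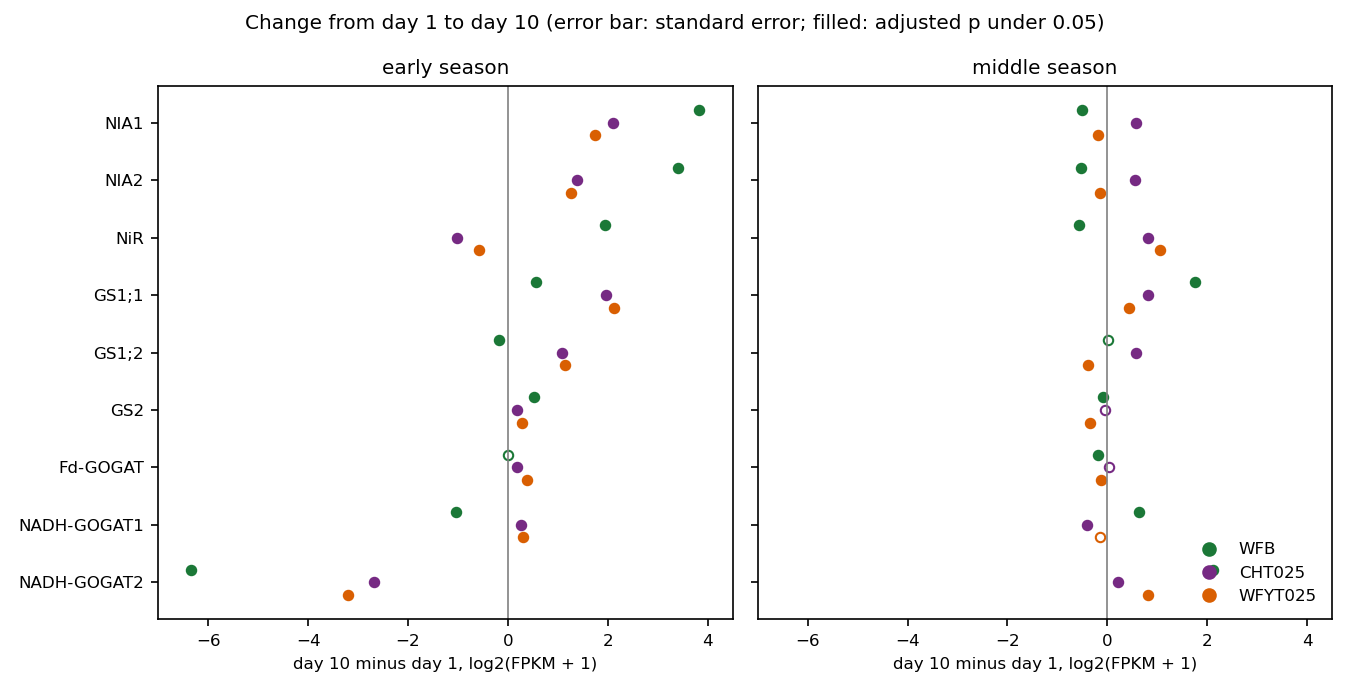
Log2(FPKM + 1) difference of day 10 minus day 1 with its standard error (most bars are smaller than the symbols) for 9 genes in WFB, CHT025 and WFYT025, early season left and middle season right. Filled points have an adjusted p under 0.05. NADH-GOGAT2 runs from -6.36 in early-season WFB to 2.11 in middle-season WFB, and GS1;1 lies right of 0 in all 6 comparisons.

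Most tested genes, among them all 9 of these, differed between the crops on day 1. Season covers all that set the crops apart, and a sampling or sequencing batch tied to a crop cannot be told apart from it. On day 1 all 9 tested genes differed between the seasons in each variety, where 78.3% of all tested genes differed in WFB, 71.9% in CHT025 and 74.2% in WFYT025. NIA1 was higher in the middle season by log2 3.45 in WFB, 1.36 in CHT025 and 2.65 in WFYT025, and NIA2 by 2.96, 0.92 and 2.26. GS1;1 was higher by 1.18, 2.28 and 2.59. NADH-GOGAT2 was lower by far, with log2 differences of -7.29, -3.34 and -5.37, that is 270-fold, 15.6-fold and 114-fold between the means. NiR was lower in CHT025 (log2 -1.48) and WFYT025 (log2 -1.77) and higher in WFB (log2 0.38). Middle-season Fd-GOGAT exceeded the early level in WFB (log2 0.43), CHT025 (log2 0.42) and WFYT025 (log2 0.60), and so did GS2 (0.62, 0.08 and 0.59). NADH-GOGAT1 was lower in WFB (log2 -0.55) and higher in CHT025 (log2 0.82) and WFYT025 (log2 0.36), while GS1;2 was lower in WFB (log2 -0.19) and CHT025 (log2 -0.31) and higher in WFYT025 (log2 0.48).

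On day 10 the crops differed, in the values as deposited, in fewer of these genes and in a smaller share of all tested genes. Called differences numbered 7 of 9 in WFB (67.8% of tested genes), 7 in CHT025 (64.2%) and 6 in WFYT025 (63.9%). After quantile normalization NiR in CHT025 lost its call (from log2 0.35 to 0.10, adjusted p = 0.287) and GS2 in CHT025 turned from a called -0.15 to a called 0.12. Quantile normalization also added calls, for GS1;2 (log2 -0.27) and GS2 (log2 0.22) in WFB and NIA2 (log2 -0.13) in CHT025. In WFYT025 it added NiR (log2 -0.33), GS2 (log2 0.17) and NADH-GOGAT1 (log2 -0.19). The lower number of these genes on day 10 thus depends on the normalization. Fd-GOGAT in WFYT025 (log2 0.10, adjusted p = 0.0440) lost its call under quantile normalization, with no filter on low values and without any single one of the 6 libraries compared (adjusted p from 0.0547 to 0.213). GS1;1 alone was higher in the middle season in all 3 varieties on both days at a log2 difference of at least 0.90, and the day 10 values were 2.38 for WFB, 1.11 for CHT025 and 0.90 for WFYT025. NiR in WFB was 4.6-fold lower in the middle season on day 10 (log2 -2.13), and GS1;2 was lower in CHT025 (log2 -0.81) and WFYT025 (log2 -1.06). The day 10 difference of NIA1 was -0.87 in WFB, -0.19 in CHT025 and 0.71 in WFYT025. Fd-GOGAT was higher in the middle season in WFB (log2 0.24) and CHT025 (log2 0.26). NADH-GOGAT1 was higher in WFB, 3.51-fold between the means (log2 1.12), with differences of 0.15 in CHT025 (adjusted p = 0.0692) and -0.08 in WFYT025 (adjusted p = 0.335). NADH-GOGAT2 was higher in WFB (log2 1.18) and lower in CHT025 (log2 -0.44) and WFYT025 (log2 -1.35).

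The season difference of the day change was called for all 9 genes in each variety (77.3% of tested genes in WFB, 57.1% in CHT025 and 70% in WFYT025). It was largest for NADH-GOGAT2, at log2 8.47 ± 0.09 in WFB, 2.90 in CHT025 and 4.02 in WFYT025. For NIA1 it was -4.33 ± 0.08, -1.54 and -1.94. WFB stood apart from the other varieties in sign for 3 genes that keep their calls in every alternative: NiR (-2.50 in WFB, 1.84 in CHT025 and 1.64 in WFYT025), GS1;1 (1.21, -1.17 and -1.69) and NADH-GOGAT1 (1.68, -0.67 and -0.44). Of the 27 calls, 24 held in every alternative. The exceptions were GS1;2 and Fd-GOGAT in WFB and Fd-GOGAT in CHT025, whose log2 values of 0.20, -0.19 and -0.16 became -0.11, -0.06 and 0.16 after quantile normalization, none of them called. The calls of GS1;2 in WFB and Fd-GOGAT in CHT025 were also lost with no filter on low values and without several single libraries.

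Among the genes of the circadian clock, only LHY and GIGANTEA were looked at here. Their FPKM also differed between these groups, as a description without a test. The labels used here do not give the hour of harvest. LOC_Os08g06110, annotated as a MYB family factor and known in rice as LHY, a clock gene with a morning peak, held 23.7 ± 0.354 FPKM in WFB, 63.2 ± 0.411 in WFYT025 and 123 ± 3.14 in CHT025 on day 1 of the early season. The other 9 groups held 385 to 844. The 3 groups with the least LHY were the 3 with the most NADH-GOGAT2 and the least NIA1, and their order in LHY was the reverse of that in NADH-GOGAT2. Their order in NIA1 did not follow LHY, with means of 4.51 FPKM in WFB, 9.40 in CHT025 and 10.95 in WFYT025. The group with the most NIA1, WFB on day 10 of the early season, held 385 FPKM of LHY. LOC_Os01g08700 is annotated as GIGANTEA, a clock gene with an evening peak. On day 1 of the early season it held 562 ± 61.8 FPKM in WFB, 441 ± 15.7 in WFYT025 and 381 ± 8.12 in CHT025. The other 9 groups held 152 to 302. The part of the clock phase or the hour of harvest in the day and season differences was not tested.

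Between the parents, GS1;1 was higher in CHT025 than in WFB in all 4 combinations of day and season. The log2 differences were 0.36 and 1.78 on day 1 and day 10 of the early season and 1.46 and 0.51 in the middle season, and the libraries of the parents did not overlap. NIA1 and NIA2 changed sides. CHT025 had more on day 1 of the early season (log2 0.92 and 0.86) and less on day 10 (-0.80 and -1.16) and on day 1 of the middle season (-1.18 and -1.17). On day 10 of the middle season the differences were -0.11 (adjusted p = 0.0761) and -0.09 (adjusted p = 0.114), and that of NIA1 became called without WFB day 10 middle replicate 2 (log2 -0.14) or CHT025 day 10 middle replicate 2 (log2 -0.15). NADH-GOGAT2 was 14.1-fold lower in CHT025 on day 1 of the early season (log2 -3.76 ± 0.06) and 4.33-fold lower on day 10 of the middle season (log2 -1.71 ± 0.06). Its difference on day 10 of the early season was -0.09 (adjusted p = 0.213). That difference became called after quantile normalization (log2 -0.18) and without CHT025 day 10 early replicate 2 (log2 -0.16). On day 1 of the middle season NADH-GOGAT2 was called higher in CHT025 (log2 0.18, adjusted p = 0.0110). That call was lost after quantile normalization (log2 -0.076) and without WFB day 1 middle replicate 1 or CHT025 day 1 middle replicate 3.

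NiR was 6.20-fold lower in CHT025 on day 10 of the early season (log2 -2.52 ± 0.07) and 2.93-fold lower on day 1 of the middle season (log2 -1.43 ± 0.07). On day 1 of the early season NiR was higher in CHT025 (log2 0.43). On day 10 of the middle season its difference was not called, with a CHT025 mean 0.97 times that of WFB. GS2 was higher in CHT025 in the early season (log2 0.50 on day 1 and 0.16 on day 10), and its middle-season differences were -0.04 and -0.01 (adjusted p = 0.191 and 0.758). GS1;2 was 2.67-fold higher in CHT025 on day 10 of the early season (log2 1.34) and higher on day 10 of the middle season (log2 0.52), with day 1 differences of 0.08 and -0.04 (adjusted p = 0.256 and 0.610). The last of these, on day 1 of the middle season, became called after quantile normalization (log2 -0.23). NADH-GOGAT1 was lower in CHT025 on day 1 of the early season (log2 -0.37), 2.94-fold higher on day 10 (log2 0.93) and 2.63-fold higher on day 1 of the middle season (log2 1.001). Its difference on day 10 of the middle season was -0.04 (adjusted p = 0.653). Fd-GOGAT was higher in CHT025 on day 10 of both seasons (log2 0.20 and 0.22), the first of which lost its call after quantile normalization (adjusted p = 0.0506), and its day 1 differences were 0.02 and 0.01 (adjusted p = 0.737 and 0.876). Called genes numbered 7, 8, 6 and 4 of 9 for day 1 and day 10 of the early season and day 1 and day 10 of the middle season, beside 59.3%, 64.3%, 75.3% and 57.3% of all tested genes. The day change itself differed between the parents for 9 of 9 genes in the early season (59.1% of tested genes) and 8 of 9 in the middle season (56.6%). The early-season count includes Fd-GOGAT (log2 0.19), which lost its call after quantile normalization (log2 0.03, adjusted p = 0.819) and without WFB day 1 early replicate 1 (adjusted p = 0.0506). For NIA1 that difference, CHT025 minus WFB, was log2 -1.71 in the early and 1.07 in the middle season, and for NiR -2.95 and 1.39.

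The hybrid lay outside both parents, higher or lower than each by its own test, in 17 of 36 combinations of gene, day and season. The numbers were 3 and 3 of 9 genes on day 1 and day 10 of the early season and 5 and 6 of 9 in the middle season, where 12.2%, 9.99%, 29.3% and 26.7% of all tested genes lay outside both. The comparisons with each parent share the hybrid libraries. Of the 17 positions, 9 held in every alternative, a count that was not made for all tested genes. NIA1 was above both parents on both days of the middle season. On day 10 it held 63.5 to 66.1 FPKM in WFYT025, against 39.9 to 43.5 in WFB and 37.2 to 40.7 in CHT025 (log2 0.62 and 0.74). On day 1 it held 71.2 to 76.6, against 58.1 to 61.3 and 23.7 to 27.6 (log2 0.32 and 1.5). NIA2 was above both on the same days (log2 0.16 and 1.34 on day 1, 0.54 and 0.64 on day 10, against WFB and CHT025), without overlap.

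On day 1 of the early season NIA1 (log2 1.12 against WFB and 0.20 against CHT025) and NiR (0.71 and 0.28) were above both parents. GS1;2 was above both on day 1 of the middle season (0.51 and 0.55), at 14.1 to 16.8 FPKM against 9.41 to 11.1 in the parents. NADH-GOGAT2 was above both on day 10 of the early season (0.63 and 0.72) and below both on day 1 of the middle season (-0.61 and -0.78). Against CHT025 alone, 6 of 9 genes differed on day 10 of the early season (34.8% of tested genes) and 8 of 9 in the middle season (56.9%). The first count was 3 without CHT025 day 10 early replicate 1 or WFYT025 day 10 early replicate 1, and the second was 5 after quantile normalization. The other 8 positions outside both parents lost a call in at least 1 alternative. They include NIA1 and NIA2 below both parents on day 10 of the early season (-0.16 and -0.13 against CHT025) and GS2 above both on day 1 of the middle season, where quantile normalization took the difference from CHT025 from 0.37 to 0.09, uncalled. NADH-GOGAT1 lay below both on day 10 of the middle season (-0.26 against WFB and -0.22 against CHT025), the latter uncalled after quantile normalization. GS1;1 lay outside both parents in none of the 4 combinations, below CHT025 in each (log2 -0.47 and -0.33 for the early crop, -0.16 and -0.54 for the middle crop, day 1 first). Fd-GOGAT differed from CHT025 in none of the 4 (log2 -0.10 to 0.09, adjusted p from 0.0607 to 0.240). Quantile normalization on day 10 of the early season, and leaving out CHT025 or WFYT025 day 1 middle replicate 2, made a difference of Fd-GOGAT called.

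**Figure D5:**
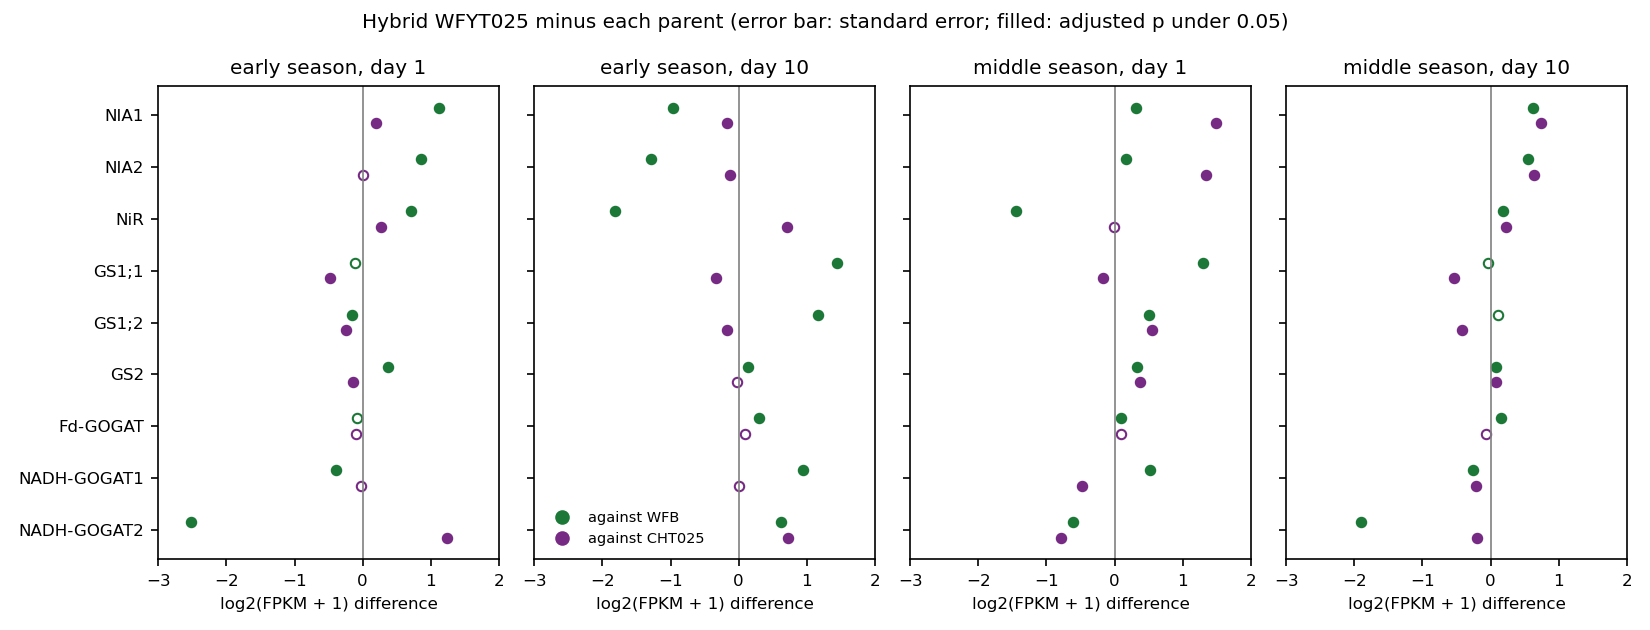
Log2(FPKM + 1) difference of the hybrid WFYT025 minus WFB (green) and minus CHT025 (purple) with its standard error for 9 genes, by season and day. Filled points have an adjusted p under 0.05. In the middle season both points of NIA1 and of NIA2 lie right of 0 on both days.

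The pattern of each gene over the 12 group means was set beside those of the other 18576 tested genes that are no members, by Pearson's r of log2(FPKM + 1), as a description. The most similar gene to NIA1 was LOC_Os02g04550, annotated as an expressed protein (r = 0.986), which was also the most similar to NIA2 (r = 0.967). For NADH-GOGAT2 it was LOC_Os04g31340, a CBS domain containing membrane protein (r = 0.986, 1.03 to 58.2 FPKM). For GS1;1 it was LOC_Os01g04190, a transporter family protein (r = 0.976). Among the members, NADH-GOGAT2 ran opposite to NIA1 (r = -0.90), NIA2 (r = -0.885) and GS2 (r = -0.88), and NADH-GOGAT1 opposite to NiR (r = -0.89). The early-season day 1 groups held the highest means of NADH-GOGAT2 and the lowest of NIA1 and NIA2. How far these r values rest on those groups was not tested.

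Other genes of nitrogen transport, glutamate and asparagine metabolism and their regulation were taken as a list of 26, of which 18 were tested. Their calls were not checked in the alternatives. From day 1 to day 10 in the early season, WFB had 7 that rose and 6 that fell, CHT025 12 and 3, and WFYT025 11 and 3. The middle season brought WFB 12 rises and 1 fall, CHT025 8 and 0, and WFYT025 10 and 1. The same shares of all tested genes as above stand beside these counts. The median log2 change of the 18 was -0.01, 0.32 and 0.53 in the early season and 0.39, 0.23 and 0.30 in the middle season, in the same order of varieties.

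Ammonium transporter LOC_Os04g43070 (AMT1;1) rose most, from 6.71 ± 0.774 to 115 ± 2.22 FPKM in early-season WFB (log2 3.92 ± 0.04, adjusted p = 9.50e-34), and was also low in WFYT025 (23.5 ± 0.385) and CHT025 (41.7 ± 0.975) on day 1 of that season. The major facilitator transporter LOC_Os01g36720 (known in rice as NRT2.4) rose from 1.76 ± 0.372 to 17.3 ± 1.47 in early-season WFB (log2 2.74). LOC_Os03g48180, annotated as a peptide transporter, fell in early-season WFB (log2 -1.60), with day 1 libraries between 14.7 and 33.0 FPKM. The asparagine synthetase LOC_Os06g15420 fell there too, from 39.4 ± 1.79 to 15.3 ± 1.14 (log2 -1.31). LOC_Os09g37710, annotated as a NIN protein, a family of nitrate-responsive regulators, was higher in the middle season in CHT025 on day 1, at 21.8 ± 1.19 against 4.82 ± 0.169 FPKM (log2 1.97). Between the seasons on day 1, AMT1;1 was higher in the middle season in WFB (log2 3.93) and NRT2.4 in CHT025 (log2 2.48), while LOC_Os03g48180 was lower in WFB (log2 -2.12). Set against the early season, the middle-season day change in WFB differed by log2 -3.29 for AMT1;1, 2.78 for LOC_Os03g48180 and 1.55 for LOC_Os06g15420, and that of NRT2.4 was -1.70 in CHT025.

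Between the parents AMT1;1 was higher in CHT025 on day 1 of the early season (log2 2.48), and so were NRT2.4 (log2 1.75) and LOC_Os03g48180 (log2 1.66) on day 1 of the middle season and the ammonium transporter LOC_Os02g40730 (AMT1;3) on day 10 of the early season (log2 1.61). The hybrid exceeded WFB in NRT2.4 on day 1 of the middle season (log2 1.98), in AMT1;1 on day 1 of the early season (log2 1.67), and in the glutamate dehydrogenase LOC_Os03g58040 (GDH1, log2 1.71) and AMT1;3 (log2 1.36) on day 10 of that season. The day change of CHT025 minus that of WFB in the early season was -2.33 for AMT1;1, 1.79 for GDH1 and 1.40 for AMT1;3, and that of LOC_Os03g48180 in the middle season was -1.46. A further glutamine synthetase of the list, LOC_Os03g50490 (GS1;3), stayed at or below 0.32 FPKM.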

How the data were processed

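The authors deposited 6 tables of FPKM, 1 per variety and season, with 1 column per library and 2 decimals, per the file headers. They also hold the authors' log2 ratio of day 1 over day 10 with a p-value and a q-value. The submitters' processing notes name HISAT, StringTie and edgeR. Their versions, the genome build, the annotation and any use of strand were not given in the sources used here. In the early-season WFYT025 table, 1 broken line and 7534 repeated lines were dropped, and 7381 genes found in that table alone, all at 0, were left out. How FPKM was scaled across tables is not stated, and comparisons of varieties and seasons cross tables.

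Values were used as deposited. The 18585 genes that reached 1 FPKM in 3 or more libraries were fitted as log2(FPKM + 1), with a pseudocount of 1, in limma 3.58.1 (R 4.3.3). The fit had 12 group means over 36 libraries, an intensity trend and 24 residual degrees of freedom. The median residual SD was 0.106. Tests were two-sided and moderated, with Benjamini-Hochberg adjustment over all tested genes in each of 35 contrasts, with calls at an adjusted p under 0.05. Count tests were not run, since the files hold no counts and the depth is unknown. Quantile normalization, a pseudocount of 0.1, no filter, a replicate block and leaving out each library were the alternatives. The variety differences of the day change were added after the data were seen. The fit was tested on simulated data. Python 3.11.15, pandas 2.3.3 and matplotlib 3.10.9 were used.

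The genes, the list of 26 others and the marker lists were chosen with earlier results of these data known. All 10 genes are named in each family of comparisons where tested. Of the 26, those called at a log2 size of at least 1 were named, at most the 4 largest per family, and the named non-member genes are those with the highest r.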

Additional observations from a re-analysis of the deposited data

Results flagged for a closer look

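The change from day 1 to day 10 differed between the seasons, or between varieties, by the test of that difference itself (limma interaction contrasts, adjusted p under 0.05) in 60 cases. All values are log2 differences of the day change, and their causes were not tested. The comparisons of varieties were added after the data were seen. The 60 cases come from 9 genes in 3 season and 4 variety contrasts. Of all tested genes, 77.3% in WFB, 57.1% in CHT025 and 70% in WFYT025 were called for the season difference. For CHT025 minus WFB the shares were 59.1% in the early and 56.6% in the middle season. Against the log2 mid-parent, 29.6% were higher and 15.9% lower in the early season, and 33.6% and 17.4% in the middle season.

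For the season difference (middle minus early), in the order WFB, CHT025 and WFYT025, NIA1 gave -4.33, -1.54 and -1.94 and NIA2 gave -3.94, -0.84 and -1.41. NiR gave -2.50, 1.84 and 1.64. The glutamine synthetases gave 1.21, -1.17 and -1.69 for GS1;1, 0.20, -0.50 and -1.54 for GS1;2, and -0.60, -0.23 and -0.63 for GS2. Fd-GOGAT gave -0.19, -0.16 and -0.50, NADH-GOGAT1 gave 1.68, -0.67 and -0.44, and NADH-GOGAT2 gave 8.47, 2.90 and 4.02. The WFB values of GS1;2 and Fd-GOGAT and the CHT025 value of Fd-GOGAT lost their calls after quantile normalization. Those of GS1;2 in WFB and Fd-GOGAT in CHT025 were also lost with no filter and without several single libraries (adjusted p from 0.0505 to 0.138).

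For CHT025 minus WFB, the early and then the middle season gave -1.71 and 1.07 for NIA1, -2.02 and 1.08 for NIA2, and -2.95 and 1.39 for NiR. GS1;1 gave 1.42 and -0.96, GS1;2 gave 1.26 and 0.56, and Fd-GOGAT gave 0.19 and 0.21. NADH-GOGAT1 gave 1.30 and -1.04, and NADH-GOGAT2 gave 3.67 and -1.89. GS2 differed in the early season, by -0.34. The early-season value of Fd-GOGAT became 0.03 (adjusted p = 0.819) after quantile normalization, and its call was also lost without WFB day 1 early replicate 1 (adjusted p = 0.0506).

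For WFYT025 minus the log2 mid-parent, the early and then the middle season gave -1.22 and -0.23 for NIA1, -1.14 and -0.16 for NIA2, and -1.04 and 0.93 for NiR. GS1;1 gave 0.85 and -0.85 and GS1;2 gave 0.70 and -0.69. NADH-GOGAT1 gave 0.69 and -0.26, and NADH-GOGAT2 gave 1.32 and -0.35. Fd-GOGAT differed in the early season, by 0.28, and GS2 in the middle season, by -0.27. Of the 8 middle-season calls, 4 were lost in an alternative. NADH-GOGAT2 went to -0.0071 (adjusted p = 0.964) with a pseudocount of 0.1, and GS2 to 0.00069 (adjusted p = 0.994) after quantile normalization. NADH-GOGAT1 lost its call without WFYT025 day 1 middle replicate 1 (adjusted p = 0.0614), and NIA2 without WFYT025 day 1 middle replicate 2 or 3 or day 10 middle replicate 1 (adjusted p from 0.0613 to 0.0752).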

How the results depend on the processing

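Of 315 results (9 genes in 35 contrasts), quantile normalization changed 44. With the sign kept, 18 calls were lost and 10 gained, while 16 values turned. A turned value changed sign and was called before or after, so most of these also lost or gained a call. Only GS2 in CHT025, for the season difference on day 10, was called with both signs. Leaving out single libraries changed 30 (22 lost, 8 gained) and no filter 5 (lost). A pseudocount of 0.1 changed 3 (2 lost, 1 gained) and the replicate block 4 (3 lost, 1 gained). Quantile normalization moved the median of all tested genes, at most from -0.31 to -0.01, for WFYT025 minus CHT025 on day 1 of the middle season.

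The values that turned under it were, for day 10 minus day 1 in the middle season, GS1;2 in WFB (-0.16), GS2 in WFB (0.043) and WFYT025 (0.035) and Fd-GOGAT in WFYT025 (0.061). For the season difference on day 10 they were GS1;2 in WFB (-0.27), NIA2 in CHT025 (-0.13) and GS2 in CHT025 (0.12) and WFYT025 (0.17), and for that of the day change GS1;2 in WFB (-0.11) and Fd-GOGAT in CHT025 (0.16). Middle-season values of day 1 that turned were NADH-GOGAT2 in CHT025 minus WFB (-0.076), Fd-GOGAT in WFYT025 minus WFB (-0.024) and minus the mid-parent (-0.0095), and NiR in WFYT025 minus CHT025 (0.37). GS2 against the mid-parent gave -0.0044 on day 1 of the early season and 0.00069 for the middle-season day change.

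On day 10, 5 genes instead of 8 differed between WFYT025 and CHT025 in the middle season under quantile normalization. In the early season 6 did, and 3 to 6 with a library left out (3 without CHT025 day 10 early replicate 1 or WFYT025 day 10 early replicate 1). The cause was not tested.

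The numbers were not taken to pair libraries, since r of same-numbered libraries was not over 0.1 in every pair. It ran from -0.20 to 0.25 across days (over 0.1 in 3 of 18 pairs), from -0.08 to 0.35 across seasons (6 of 18) and from -0.29 to 0.19 across varieties (4 of 36). Under the replicate block, the change of GS1;1 in WFYT025 minus WFB on day 1 of the early season (-0.11) became called (adjusted p = 0.0413). Lost were Fd-GOGAT for the same varieties on day 1 of the middle season (0.10, 0.0748), NIA2 in WFYT025 minus CHT025 on day 10 of the early season (-0.13, 0.0700) and GS2 against the mid-parent there (0.06, 0.0653).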
